A study of Mus musculus with 18 samples.

Results

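The 10 genes described here encode the mitochondrial chaperones and proteases: the chaperonin Hspd1 and its partner Hspe1, the matrix HSP70 Hspa9 with its helpers Dnaja3 and Grpel1, the matrix HSP90 Trap1, and the proteases or protease subunits Clpp, Clpx, Lonp1 and Yme1l1. They are given by name, by a rule that uses no measured value, although they were chosen with earlier results of these data known. All 10 were found among the 20207 genes listed and among the 12731 genes tested. The mRNA-seq libraries came from NIH3T3 cells, an immortalized mouse fibroblast line, that stably express a destabilizing domain fused to GFP (DD-GFP). The cells had been sorted for high DD-GFP, and the ligand S1, which keeps the domain folded, was present in every culture described here. Controls were kept at the normal growth temperature without tunicamycin (time 0). Heat-shocked cells (HS) were held at a raised temperature for 45 or 135 min, and other cells received tunicamycin (Tu) for 45, 135 or 405 min. Tunicamycin blocks N-linked glycosylation and so causes unfolded protein in the endoplasmic reticulum (ER). Each of the 6 groups had 3 libraries, and the labels number the replicates without saying how they were made, so that p-values measure the spread between these samples only. HS was used as a control for the cytosolic heat shock response and tunicamycin as a control for the ER response. The comparisons therefore ask how a compartment that neither stress was chosen for behaved under each of them.

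Nearly all mitochondrial proteins are made in the cytosol, threaded through the mitochondrial membranes in an unfolded state and folded inside. Hspa9 binds and releases them in cycles set by helpers such as Dnaja3 and Grpel1. The chaperonin folds some of them in a closed chamber, and the ATP-dependent proteases remove those that fail. When this system is overloaded, nuclear genes for these same chaperones and proteases are transcribed more, a program known as the mitochondrial unfolded protein response. In mammals the transcription factors Atf4, Atf5, Ddit3 and Hsf1 have been tied to that program.

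Between 33415592 and 66478268 reads fell on genes per library, so that 3 reads equalled at most 0.0898 counts per 1000000 reads (CPM), far below every member. The 7 fibroblast markers were present in every library (together 3842 to 11986 RPKM, the authors' reads scaled to transcript length and library size), while the 8 markers of other cell types together gave 4.15 to 8.22 RPKM, mostly Cd68, and Epcam was at 0 in 15 libraries and Ptprc in 11. The stress marker Hspa1b, a cytosolic HSP70 whose reads may be shared with a near-identical copy, averaged 873 CPM at 135 min of HS against 5.76 CPM in controls, and Hspa5, the ER HSP70, averaged 9012 CPM at 405 min of Tu against 692 CPM. The libraries differed in how strongly a gene's level followed the GC content of its transcript. This slope ran from -0.45 to 0.87 log2 units per 10 percentage points of GC, and the first axis of the spread between replicates, which held 66.6% of that spread over all genes, followed GC content with a Spearman rho of 0.704 across genes. HS 45 min replicate 3, HS 135 min replicate 2 and Tu 135 min replicate 1 stood apart from the other libraries of their groups by this measure, each over 0.5 from the median of its group. Control replicate 1 (0.052 beside -0.444 and -0.447) lay just inside this limit. High positive slopes were most frequent among the heat-shocked libraries (0.68, 0.82 and 0.87 in 3 of them), so that part of this difference cannot be told apart from HS. The table of genes placed the other members, Hspa9 aside, on mm9 as follows. Lonp1 (56753722 to 56766326, minus strand) and Clpp (57129687 to 57135792, plus strand) lie on chromosome 17, and Trap1 (4039977 to 4077810, minus strand) and Dnaja3 (4684070 to 4707690, plus strand) on chromosome 16. Grpel1 lies on chromosome 5 (36807834 to 36816726), Clpx on chromosome 9 (65142102 to 65178465) and Yme1l1 on chromosome 2 (23012066 to 23054156), each on the plus strand. Values of the members with an offset for GC are given where they change a call.

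The control cells expressed the 10 genes at levels that spanned from the upper to the middle range of the genes tested. On the RPKM scale, which allows genes of different length to be set side by side, Hspd1 had 193 ± 80.2 RPKM, Hspe1 189 ± 53.6 RPKM and Hspa9 179 ± 47.2 RPKM (SD, n = 3), at percentiles 97.3 to 97.6 of the genes tested. Lonp1 followed with 76.9 ± 5.26 RPKM, Clpp with 70.3 ± 4.82 RPKM and Trap1 with 62.2 ± 6.23 RPKM (SD, n = 3). Dnaja3 had 22.0 ± 3.78 RPKM and Grpel1 14.6 ± 3.56 RPKM (SD, n = 3). The lowest were Yme1l1 with 5.17 ± 1.51 RPKM and Clpx with 4.37 ± 1.67 RPKM (SD, n = 3), at percentiles 44.8 and 41.4. The control samples of neighbours in this order overlapped among the first 3, among Lonp1, Clpp and Trap1, and between Yme1l1 and Clpx, and did not overlap at the other steps. The matrix HSP70 was thus listed at a higher level than either of its helpers, and the peptidase Clpp at a higher level than its unfoldase partner Clpx, in all 3 control libraries.

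**Figure D1:**
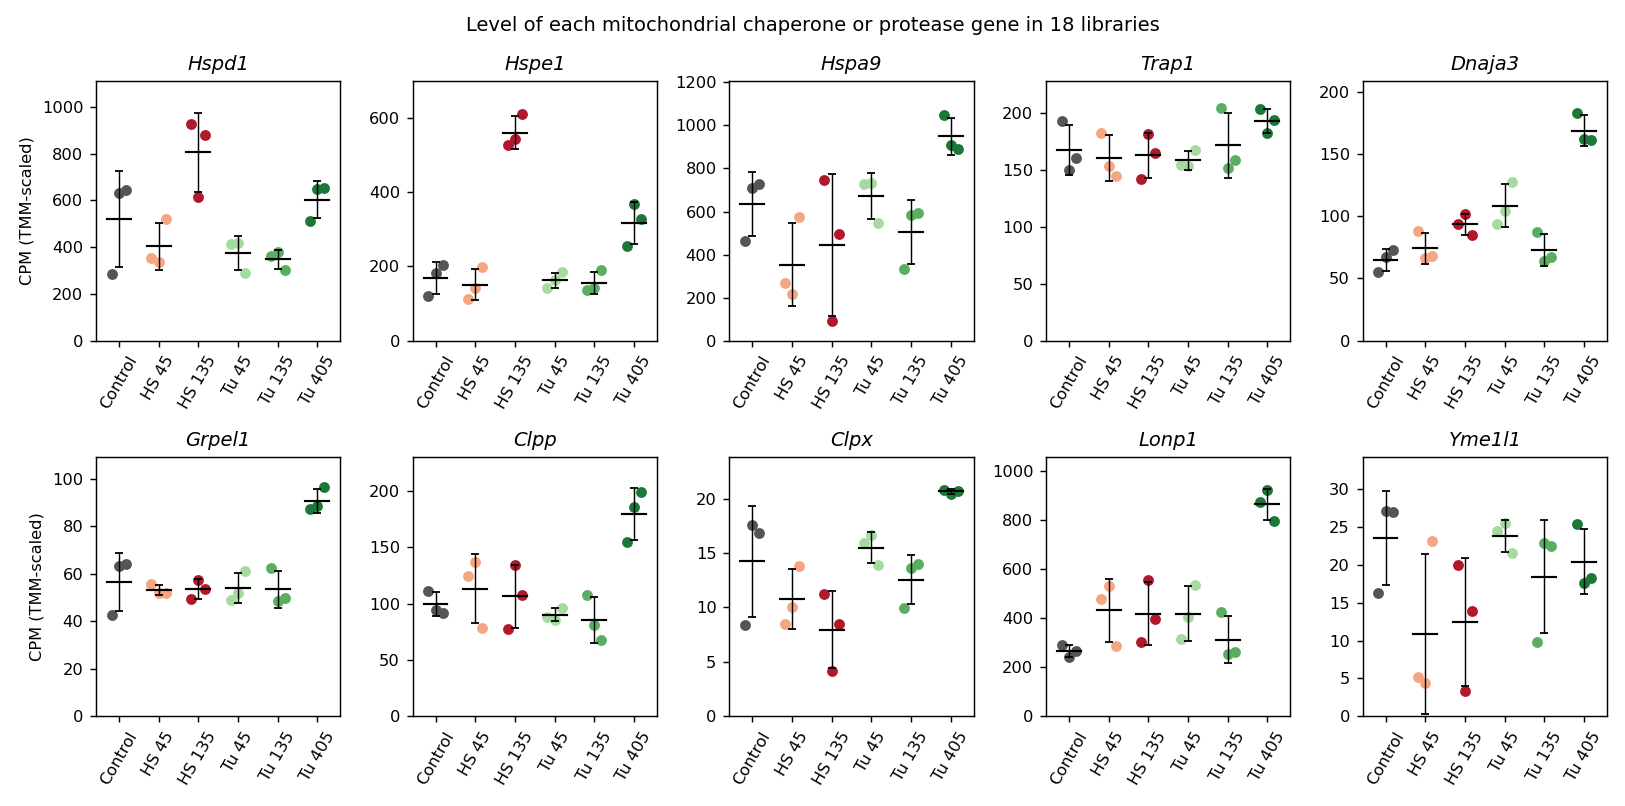
Level of each gene in every library, as CPM scaled by TMM over the 18 libraries, on linear axes that start at 0. Points are libraries ordered by replicate number, and bars with whiskers give the mean and SD of a group. Hspe1 at 135 min of HS (528 to 612 CPM) and Lonp1 at 405 min of Tu (798 to 922 CPM) lie above all libraries of the other groups.

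Under HS, the member called was Hspe1. It encodes HSP10, the lid that closes the folding chamber, and Hspd1 encodes HSP60, which forms the chamber. CPM values in the following are scaled by TMM over all 18 libraries, and fold changes come from a fit of the 2 groups compared. Hspe1 had 121, 183 and 203 CPM in the controls and 528, 543 and 612 CPM at 135 min of HS. All 3 heat-shocked samples lay above all controls by more than the range of either group. Its level rose 3.32-fold (1.73 in log2 with a standard error of 0.25, and adjusted p = 0.0155 in the quasi-likelihood test of edgeR, adjusted by Benjamini-Hochberg over all genes tested). Hspe1 was the only member called at this time, with 605 genes (4.75% of those tested) called higher and 336 (2.64%) called lower (498 and 426 when scaled by total counts). Here and in all other comparisons of these bulk samples, fewer cells with a transcript and less of it per cell cannot be told apart. The call was lost without HS 135 min replicate 3 (log2 fold change 1.66, adjusted p = 0.107, edgeR), without control replicate 2 (1.79, adjusted p = 0.103) and without control replicate 3 (1.88, adjusted p = 0.0860).

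Hspd1 had 285, 633 and 646 CPM in the controls and 924, 613 and 881 CPM at 135 min of HS. Control replicate 1 was well below the other 2 controls, and HS 135 min replicate 2 lay within the range of the controls. The log2 fold change of Hspd1 was 0.63 (standard error 0.35, adjusted p = 0.254, edgeR) and did not pass the threshold. With the GC offset it was 0.88 (adjusted p = 0.0521, edgeR), and 0.88 with that offset in a fit of all 6 groups (adjusted p = 0.00650, edgeR), a setting chosen after seeing the data. Neither gene had passed the test at 45 min of HS. Hspe1 had 114, 143 and 197 CPM at that time and Hspd1 had 353, 337 and 519 CPM, both within or close to the range of the controls.

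Both members of the pair were higher at 135 min of HS than at 45 min in every sample, the only 2 of the 10 of which this held (9.43% of all genes). The log2 fold change from 45 to 135 min was 1.85 for Hspe1 (standard error 0.26, adjusted p = 0.143, edgeR) and 0.96 for Hspd1 (standard error 0.28, adjusted p = 0.290, edgeR). No gene at all passed the threshold in this comparison (0%), in which 2 of the 10 members had an unadjusted p under 0.05 and DESeq2 called 1 of them. Of all 12731 genes, 1481 had an unadjusted p under 0.05, and DESeq2 called 194 higher and 209 lower. With the GC offset both were called, at 1.83 for Hspe1 and 0.87 for Hspd1 (adjusted p = 0.0398 for each, edgeR). Without the 2 libraries that stood apart they were called at 2.13 and 1.36 (adjusted p = 0.000936 and 0.00561, edgeR), together with Hspa9 at 1.33 and Yme1l1 at 1.80, a setting chosen after seeing the data that leaves 2 libraries against 2.

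At the same time of 135 min, the pair also separated HS from Tu. Tu 135 min libraries had 135, 142 and 191 CPM of Hspe1 and 362, 377 and 302 CPM of Hspd1, all below the HS libraries given above (13.4% of all genes had HS above Tu in this way). Hspe1 was 3.53-fold higher under HS (log2 1.82, standard error 0.20, adjusted p = 0.0184, edgeR) and Hspd1 2.28-fold higher (log2 1.19, standard error 0.22, adjusted p = 0.0490, edgeR). These were the only 2 members called, in a comparison that called 1.3% of genes higher and 0.817% lower (166 and 104, or 209 and 275 when scaled by total counts). The call of Hspd1 was lost in 5 of the 6 fits without 1 library, all but the one without HS 135 min replicate 2, with log2 fold changes of 1.07 to 1.26 and adjusted p-values of 0.0599 to 0.264 (edgeR). That of Hspe1 was lost without HS 135 min replicate 3 (1.74, adjusted p = 0.140, edgeR) and without Tu 135 min replicate 1 (1.73, adjusted p = 0.0688), replicate 2 (1.76, adjusted p = 0.171) or replicate 3 (1.99, adjusted p = 0.0995).

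Hspd1 and Hspe1 are neighbours that are read in opposite directions. On mm9, the build of the files, Hspd1 lies on the minus strand of chromosome 1 (55134678 to 55144776) and Hspe1 on the plus strand (55144992 to 55148161), with 215 bases between these starts. GENCODE places the outermost start of Hspd1 farther out, at 55145087, beyond its start of Hspe1 at 55144976. The promoter table from RefSeq (GRCm38.p6) holds the same stretch of 215 bases at chr1:55087933-55088147. It lists 2 starts for Hspd1, and the stretch begins next to 1 of them. The stretch is shown because both genes have it before the starts used here. Both genes were also higher at 135 min of HS than at 45 min in every sample. The stretch is given 5′ to 3′ on the plus strand, from the Hspd1 side to the Hspe1 side, with 4 alternating units of the heat shock element, the site bound by heat shock factors, in capitals.

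Hspd1-Hspe1 stretch: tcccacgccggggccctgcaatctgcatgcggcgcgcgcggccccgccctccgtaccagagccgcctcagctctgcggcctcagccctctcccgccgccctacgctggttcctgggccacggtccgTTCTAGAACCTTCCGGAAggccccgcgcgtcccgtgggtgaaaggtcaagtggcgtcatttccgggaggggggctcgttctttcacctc

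The 18 bases in capitals end 72 bases before the start of Hspe1 and lie 127 bases from that of Hspd1, in a stretch of 70.2% GC. A heat shock element of 2 units was searched as GAANNTTC or TTCNNGAA on both strands, from 250 bases before to 50 bases after each start. It was found in 17% of the 27025 genes in the table, and in 3 of the 9 members that the table holds (Hspd1, Hspe1 and Clpp). An element of 3 units, in which a further GAA or TTC follows in alternation after any 2 bases, overlaps the first by construction and was found in 0.662% of genes and in Hspd1 and Hspe1 of these 9 members. All matches of Hspd1 lie before the start used here, and none lies in the window of its other start. A C/EBP-ATF composite element (TGATGNAA, 4.51% of genes) and an ER stress element (CCAAT, any 9 bases, CCACG, 0.137% of genes) were found in none of these 9 members. These are matches of letters only.

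**Figure D2:**
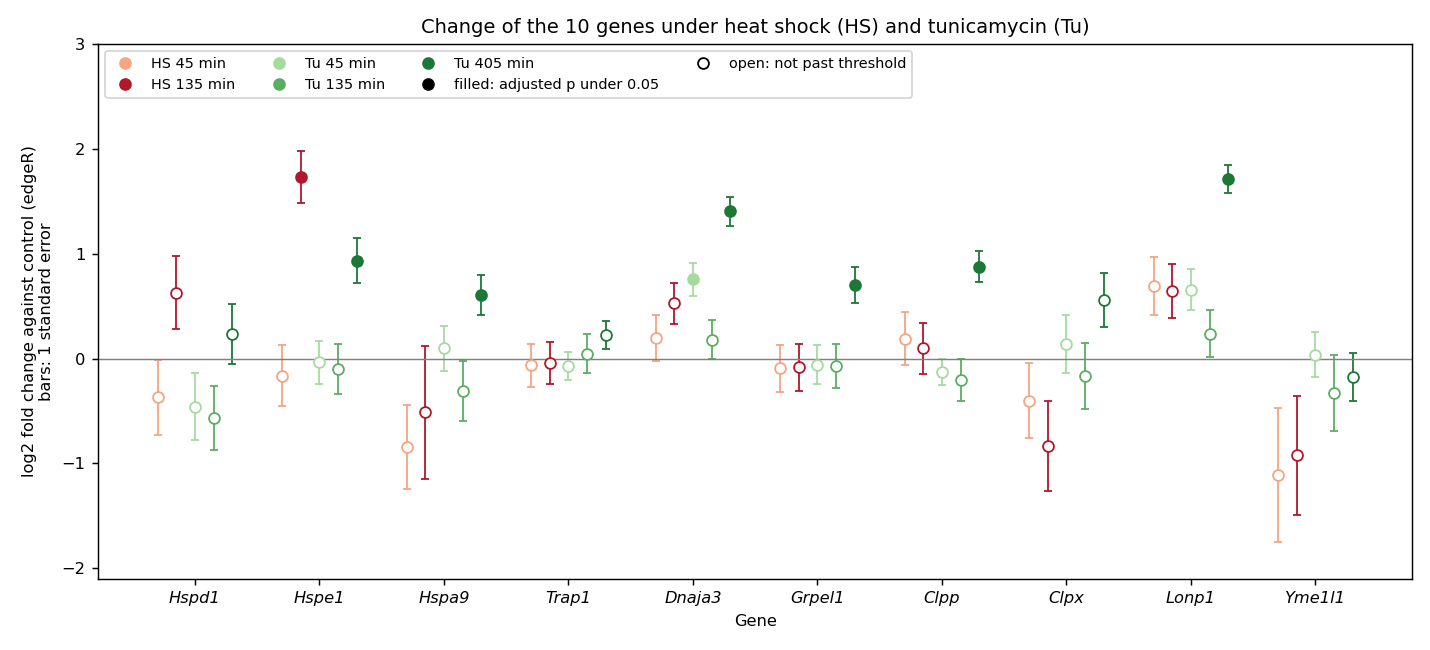
Log2 fold change of each gene against the controls in the 5 stress groups, with 1 standard error from edgeR. Filled circles passed an adjusted p of 0.05 and open circles did not. Of the HS values only that of Hspe1 at 135 min (1.73) is filled, while 6 genes are filled at 405 min of Tu, led by Lonp1 (1.71) and Dnaja3 (1.40).

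The pair also differed in how far each moved. The ratio of Hspe1 to Hspd1 in RPKM, looked at after the levels had been seen and given as a description without a test, was 1.29, 0.879 and 0.956 in the controls. It was 1.73, 2.69 and 2.11 at 135 min of HS, all above the controls, with a mean difference of 1.06 in log2. It was 1.53, 1.73 and 1.53 at 405 min of Tu, again all above, with a mean difference of 0.63. In the other 3 stress groups the ratios overlapped those of the controls. Replicate 3 of Tu 45 min and replicate 3 of Tu 135 min, at 1.92 each, nevertheless lay above all Tu 405 min libraries. Without single libraries the mean log2 difference was 0.90 to 1.23 at 135 min of HS and 0.52 to 0.80 at 405 min of Tu.

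**Figure D3:**
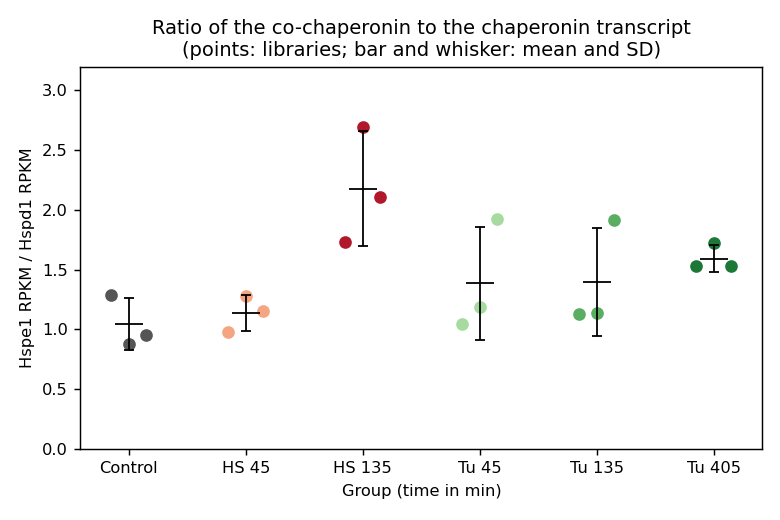
Ratio of Hspe1 to Hspd1 RPKM in each library by group, with the mean and SD of 3 libraries. Ratios at 135 min of HS (1.73 to 2.69) and 405 min of Tu (1.53 to 1.73) lie above those of the controls (0.879 to 1.29), whose axis starts at 0.

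None of the other 8 genes was called under HS. At 45 min the edgeR test called no gene at all (0%), 1 member (Lonp1) had an unadjusted p under 0.05, and DESeq2 called none of the 10. Of all 12731 genes, 2480 had an unadjusted p under 0.05, and DESeq2 called 386 higher and 65 lower. The member log2 fold changes against the controls ran from -1.11 (Yme1l1) to 0.69 (Lonp1), with a median of -0.13 beside -0.03 for all genes tested. At 135 min they ran from -0.92 (Yme1l1) to 1.73 (Hspe1), with a median of 0.03 beside -0.02. In 3 members all 3 HS 135 min samples lay above the controls (Hspe1, Dnaja3 and Lonp1), which held for 18.1% of genes.

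Dnaja3, the J-domain partner of the matrix HSP70, had 55.0, 67.1 and 72.5 CPM in the controls and 93.9, 102 and 84.7 CPM at 135 min of HS. The log2 fold change was 0.53 (standard error 0.20, adjusted p = 0.128, edgeR) and passed the threshold with the GC offset (0.56, adjusted p = 0.0447, edgeR). Lonp1, the main ATP-dependent protease of the matrix, had 291, 243 and 268 CPM in the controls, 478, 532 and 286 CPM at 45 min of HS and 301, 558 and 397 CPM at 135 min. Its log2 fold changes were 0.69 (standard error 0.27, adjusted p = 0.242) and 0.65 (standard error 0.26, adjusted p = 0.146, edgeR). With the GC offset they were 0.22 and 0.29. Leaving out 1 library gave a call of Lonp1 in each comparison, 0.92 at 45 min without HS 45 min replicate 3 (adjusted p = 0.00569) and 0.84 at 135 min without HS 135 min replicate 1 (adjusted p = 0.0407, edgeR). Of the 12731 genes tested, the first of these fits called 2737 higher and 3049 lower, and the second 1535 and 932.

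Hspa9 and Yme1l1, the latter an inner membrane protease that faces the intermembrane space, had the widest spread under HS. Hspa9 had 463, 711 and 729 CPM in the controls, 269, 215 and 577 CPM at 45 min and 747, 89.0 and 496 CPM at 135 min. Yme1l1 had 16.3, 27.1 and 27.1 CPM in the controls, 5.14, 4.40 and 23.1 CPM at 45 min and 20.1, 3.35 and 13.9 CPM at 135 min. The highest and the lowest heat-shocked library differed several-fold within a group for both genes. The log2 fold changes at 45 min were -0.84 for Hspa9 (standard error 0.40, adjusted p = 0.270) and -1.11 for Yme1l1 (standard error 0.64, adjusted p = 0.314, edgeR). Without HS 45 min replicate 3 both were called lower, at -1.39 (adjusted p = 0.00575) and -2.30 (adjusted p = 0.00190, edgeR). That fit called 2737 genes higher and 3049 lower of the 12731 tested. At 135 min the values were -0.51 (standard error 0.63, adjusted p = 0.608) and -0.92 (standard error 0.57, adjusted p = 0.305, edgeR).

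Within these wide spreads the order of the libraries followed their GC slope. Yme1l1 has the transcript with the lowest GC content of the 10 (38.0%), followed by Clpx (44.6%), Hspa9 (45.9%), Hspd1 (46.8%) and Grpel1 (47.3%), while Clpp (56.7%) and Lonp1 (57.4%) have the highest. In the library with the most positive slope of its group, Hspa9 was lowest in 6 of 6 groups, Yme1l1 in 5, and Hspd1 and Clpx in 4 each. Clpp was highest there in 6 of 6 groups and Lonp1 in 5. Dnaja3 (50.6% GC) was highest in 3 and lowest in 3. HS 45 min replicate 3 had a slope of -0.27 beside 0.68 and 0.82 in the other 2 libraries of its group, and HS 135 min replicate 2 had 0.87 beside -0.30 and 0.13. With the GC offset the log2 fold changes of Hspa9 were -0.51 at 45 min and -0.36 at 135 min (standard errors 0.24 and 0.52). Those of Yme1l1 were -0.71 and -0.53 (standard errors 0.41 and 0.35), and none of these values was called. A wide spread of Hspa9 at 135 min thus remained with the offset. The part of GC in these differences was not tested further.

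**Figure D4:**
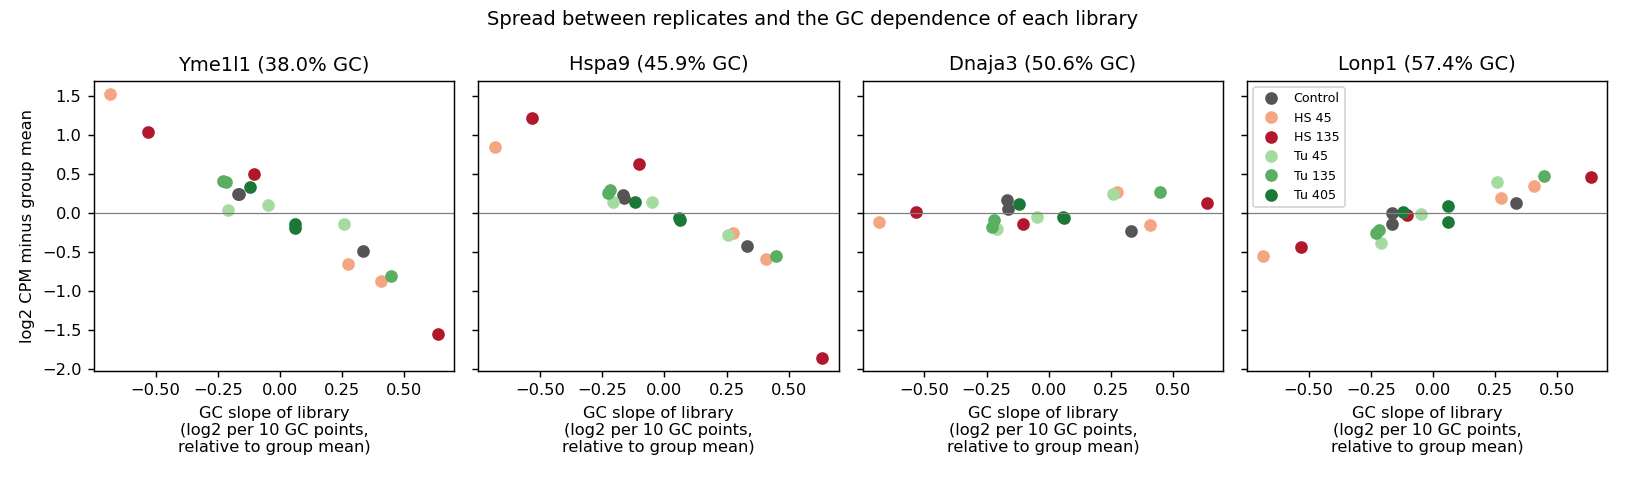
Deviation of log2 CPM from the group mean (vertical) against the GC slope of the library relative to its group mean (horizontal) for 4 genes ordered by transcript GC content, with 1 point per library. Yme1l1 (38.0% GC) and Hspa9 (45.9%) fall along this axis, Dnaja3 (50.6%) stays near 0 and Lonp1 (57.4%) climbs.

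The remaining 4 genes showed no change under HS that passed the test. Trap1 had log2 fold changes of -0.06 at 45 min and -0.04 at 135 min with standard errors of 0.20 for both, and its libraries stayed between 142 and 193 CPM over the controls and both HS times. Grpel1, the nucleotide exchange factor of Hspa9, had -0.09 and -0.08 (standard errors 0.22 and 0.23), values that became 0.27 and 0.18 with the GC offset. Clpp, the peptidase of the ClpXP protease, had 0.19 and 0.10 (standard errors 0.25 and 0.24), which became -0.21 and -0.19 with the offset. Clpx, the ATPase that unfolds proteins for Clpp, had 8.36, 17.6 and 16.8 CPM in the controls and 11.2, 4.19 and 8.48 CPM at 135 min. Its log2 fold change at 135 min was -0.84 (standard error 0.43, adjusted p = 0.227, edgeR), and -0.53 with the GC offset (adjusted p = 0.180, edgeR), neither called. With that offset in the fit of all 6 groups it was -0.53 and called lower (adjusted p = 0.0350, edgeR), a setting chosen after seeing the data.

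Tunicamycin moved most of the 10 genes at its last time. At 405 min 6 members were called higher and none lower (Lonp1, Dnaja3, Hspe1, Clpp, Grpel1 and Hspa9), in a comparison that called 23.3% of all genes higher and 23.5% lower. DESeq2 called the same number, 6, and 0 lower, and 6 members in all had an unadjusted p under 0.05. Of all 12731 genes, 6955 had an unadjusted p under 0.05, and DESeq2 called 3140 higher and 3160 lower. In 7 of the 10 all Tu samples lay above all controls, which held for 29.2% of genes, and 9 of 10 log2 fold changes were above 0. The median log2 fold change of the members was 0.65 (range -0.18 to 1.71), beside -0.01 for all genes tested.

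Lonp1 rose most. It had 873, 922 and 798 CPM at 405 min of Tu, all above the controls (243 to 291 CPM) and above every other library. The rise was 3.28-fold (log2 1.71, standard error 0.14, adjusted p = 6.12e-05, edgeR), and with the GC offset 1.60 in log2. Dnaja3 had 183, 162 and 161 CPM against 55.0 to 72.5 CPM in the controls. It rose 2.64-fold (log2 1.40, standard error 0.14, adjusted p = 0.000153, edgeR). Neither call was lost without any single library, and the log2 fold changes then ran from 1.63 to 1.79 for Lonp1 and from 1.30 to 1.47 for Dnaja3.

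Hspe1, the lid of the chaperonin, had 257, 367 and 328 CPM at 405 min of Tu, all above its highest control of 203 CPM and all below its lowest value at 135 min of HS. It rose 1.91-fold (log2 0.93, standard error 0.22, adjusted p = 0.00837, edgeR). Hspd1 had 510, 647 and 651 CPM, which overlapped the controls. Its log2 fold change was 0.24 (standard error 0.29, adjusted p = 0.531, edgeR). Between these neighbours, then, Hspe1 passed the threshold against the controls at 135 min of HS and at 405 min of Tu, and Hspd1 at neither time. The difference between the 2 genes was not tested.

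Clpp had 154, 186 and 199 CPM at 405 min of Tu against 112, 94.7 and 92.1 CPM in the controls. It rose 1.84-fold (log2 0.88, standard error 0.15, adjusted p = 0.00191, edgeR). Its partner Clpx had 20.8, 20.4 and 20.7 CPM, all above the controls. The log2 fold change of Clpx was 0.56 (standard error 0.25, adjusted p = 0.103, edgeR), and Clpx passed the threshold with the GC offset (0.69, adjusted p = 0.0143) and without control replicate 1 (0.29, adjusted p = 0.0242, edgeR). That control was the lowest of the 3 for Clpx, and also for Hspd1, Hspe1, Hspa9, Dnaja3, Grpel1 and Yme1l1.

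Grpel1 had 87.1, 88.4 and 96.6 CPM against 42.6, 63.3 and 63.9 CPM in the controls, a 1.63-fold rise (log2 0.70, standard error 0.17, adjusted p = 0.00991, edgeR). Hspa9 had 1049, 907 and 892 CPM against 463, 711 and 729 CPM, a 1.52-fold rise (log2 0.61, standard error 0.19, adjusted p = 0.0294, edgeR). For both genes the lowest Tu sample lay above the highest control. The Hspa9 call was lost without each of Tu 405 min replicates 1, 2 and 3 (log2 fold changes 0.50, 0.64 and 0.64, adjusted p = 0.116, 0.0740 and 0.0662, edgeR), and also when libraries were scaled by total counts (0.50, adjusted p = 0.0820) or when all 6 groups shared a fit (0.58, adjusted p = 0.430). With the GC offset it was 0.72 (adjusted p = 0.00231, edgeR). Of the 2 helpers of Hspa9, Grpel1 was called against the controls at 405 min and Dnaja3 at 45 and 405 min.

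Trap1 had 203, 182 and 194 CPM at 405 min of Tu against 193, 150 and 160 CPM. Its log2 fold change was 0.23 (standard error 0.14, adjusted p = 0.204, edgeR), and it passed the threshold without control replicate 1 (0.34, adjusted p = 0.00866, edgeR). Yme1l1 had 25.4, 17.6 and 18.3 CPM against 16.3, 27.1 and 27.1 CPM, and the groups overlapped. At -0.18 (standard error 0.23, adjusted p = 0.547, edgeR), its log2 fold change was the only one of the 10 below 0.

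The earlier times of Tu showed less. At 45 min Dnaja3 had 93.9, 104 and 128 CPM, all above the controls, and was called 1.69-fold higher (log2 0.76, standard error 0.16, adjusted p = 0.0381, edgeR), as the only member beside 4.01% of genes called higher and 2.17% called lower (510 and 276, or 878 and 180 when scaled by total counts). The call was lost in 5 of the 6 fits without 1 library: without Tu 45 min replicate 1 (0.85, adjusted p = 0.0681), replicate 2 (0.78, adjusted p = 0.162) or replicate 3 (0.64, adjusted p = 0.104), and without control replicate 2 (0.78, adjusted p = 0.116) or replicate 3 (0.84, adjusted p = 0.101, edgeR). Lonp1 had 314, 405 and 537 CPM, all above the controls. Its log2 fold change was 0.66 (standard error 0.19, adjusted p = 0.0863, edgeR), and it was called with the GC offset (0.60, adjusted p = 0.0274, edgeR) and by DESeq2 (0.64, adjusted p = 0.0395). These were the only 2 members whose Tu 45 min samples lay above all controls, which held for 17.2% of genes. For Hspd1 the value was -0.46 in log2 (standard error 0.32, adjusted p = 0.410), and it was called lower without control replicate 1 (-0.76, adjusted p = 0.0333, edgeR).

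No member was called by edgeR or DESeq2 at 135 min of Tu, and none had an unadjusted p under 0.05. Of all 12731 genes, 2369 had an unadjusted p under 0.05, and DESeq2 called 318 higher and 321 lower. In edgeR the comparison called 0.126% of genes higher and 0.00785% lower. The log2 fold changes ran from -0.57 (Hspd1, standard error 0.31) to 0.24 (Lonp1, standard error 0.22), and the samples of all 10 genes overlapped the controls (13.7% of all genes lay wholly above and 13.6% wholly below). Dnaja3 had 87.2, 63.7 and 67.6 CPM and Lonp1 424, 254 and 261 CPM at this time. Tu 135 min replicate 1 was the highest of its group for both genes and had the highest GC slope of the 3 (0.45 beside -0.23 and -0.22).

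The change from 135 to 405 min of Tu took in 8 of the 10 genes, all called higher, beside 21.4% of all genes called higher and 22.4% lower. All samples at 405 min lay above all samples at 135 min in these 8, which held for 29.8% of genes. Lonp1 rose 2.72-fold (log2 1.44, standard error 0.22, adjusted p = 0.00179), Dnaja3 2.28-fold (1.19, standard error 0.16, adjusted p = 0.000908) and Clpp 2.07-fold (1.05, standard error 0.20, adjusted p = 0.00420, edgeR). Hspe1 rose 2.01-fold (log2 1.0, standard error 0.20) and Hspd1 1.71-fold (0.78, standard error 0.16, adjusted p = 0.00660, edgeR). Hspd1 was called between the Tu times, with 302 to 377 CPM at 135 min, and not at 405 min against the controls (285 to 646 CPM). Hspa9 (0.89), Grpel1 (0.74) and Clpx (0.70) completed the 8, and Trap1 (0.15, standard error 0.15) and Yme1l1 (0.13, standard error 0.32) were not called. Clpx lost its call without Tu 405 min replicate 2 (0.71, adjusted p = 0.0516) or replicate 3 (0.69, adjusted p = 0.0550), Hspa9 without Tu 405 min replicate 1 (0.82, adjusted p = 0.0602), and Trap1 gained one without Tu 135 min replicate 1 (0.29, adjusted p = 0.0219, edgeR). The members' median log2 fold change was 0.83, beside -0.01 for all genes. This comparison and that of 405 min with the controls share the Tu 405 min libraries.

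Hspa9, Trap1 and Dnaja3 have relatives in the cytosol and the ER, which were read beside them. Of 8 such counterparts, 4 were called higher and 0 lower at 135 min of HS, beside 4.75% and 2.64% of all genes. The largest were the cytosolic Hspa1b (log2 7.24, standard error 0.65) and the J-domain protein Dnaja1 (1.54, standard error 0.28, adjusted p = 0.0237, edgeR). The other 2, named after their values were seen, were Hspa8 (0.99) and Hspa5 (0.96). None of Hspa9 (-0.51), Trap1 (-0.04) and Dnaja3 (0.53) was called in this comparison, and the difference between compartments was not tested. The count of 4 fell to 1 without HS 135 min replicate 3 or without control replicate 1, 2 or 3, and rose to 6 with the GC offset. Among all genes these fits called 11, 350, 12, 10 and 1437 higher in the same order, against 605 with all libraries and no offset. At 405 min of Tu 2 of the 8 were called higher, both of the ER: Hspa5 at 3.73 (standard error 0.15) and Hsp90b1, the ER HSP90, at 2.90 (standard error 0.39, adjusted p = 0.000639, edgeR). The cytosolic Hspa8 (-1.56), Hsp90aa1 (-1.10), Hspa1b (-1.06) and Dnaja1 (-0.75), named after their values were seen, were called lower, whereas Dnaja3 and Hspa9 were called higher. Over all genes this comparison called 23.3% higher and 23.5% lower. The median over the 8 counterparts was 0.97 at 135 min of HS and -0.52 at 405 min of Tu. The counterparts called at 45 min of Tu were Hspa1b (-1.40) and Hspa8 (-0.85), both lower, beside 2.17% of all genes. Without control replicate 1 the calls were 4 lower and 1 higher, and without Tu 45 min replicate 1 or 2 or control replicate 2 or 3 they were 0. Among all genes these fits called 1108, 46, 3, 18 and 17 lower in the same order, against 276 with all libraries. At 45 min of HS and 135 min of Tu edgeR called none of the counterparts, with 1 and 3 at an unadjusted p under 0.05 and 1 each by DESeq2. Of all 12731 genes, 2480 and 2369 had such a p. DESeq2 called 386 higher and 65 lower at 45 min of HS, and 318 and 321 at 135 min of Tu.

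**Figure D5:**
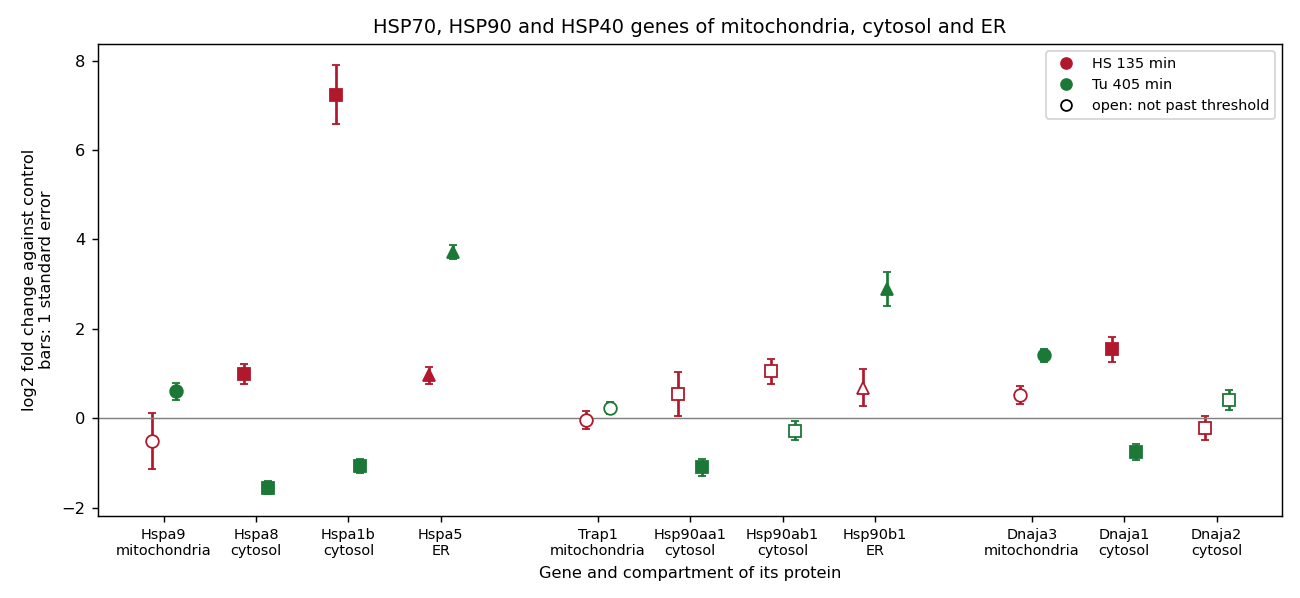
Log2 fold change against the controls at 135 min of HS and 405 min of Tu for the HSP70, HSP90 and HSP40 genes of mitochondria (circles), cytosol (squares) and ER (triangles), with 1 standard error. Filled symbols passed an adjusted p of 0.05. Hspa1b (7.24) tops the HS values and Hspa5 (3.73) the Tu values, and the filled mitochondrial values are those of Hspa9 (0.61) and Dnaja3 (1.40) under Tu.

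Other genes of the mitochondrial system were read from lists chosen by function. Of 20 genes of mitochondrial protein import, 6 were called higher and 1 lower at 405 min of Tu (median log2 fold change 0.33), with Magmas, a subunit of the import motor (1.16, standard error 0.23, adjusted p = 0.00441), and Timm9, an intermembrane space chaperone (1.06, standard error 0.22, adjusted p = 0.00497, edgeR), as the largest. The one called lower was Tomm70a (-0.54), an outer membrane receptor. The number higher ran from 4 to 9 in fits without 1 library, 4 without Tu 405 min replicate 3 and 9 without control replicate 1. Among all genes the fits just named called 2048 and 4017 higher, against 2965 with all libraries. From 135 to 405 min of Tu 14 of the 20 were called higher and 0 lower, beside 21.4% of all genes called higher. That number was 9 without Tu 135 min replicate 2 or Tu 405 min replicate 3, and 18 without Tu 135 min replicate 1. Among all genes these fits called 2041, 1692 and 4094 higher, against 2720 with all libraries. Under HS 0 were called higher and 1 lower at 135 min, beside 4.75% and 2.64% of all genes. Of the 20, 6 had an unadjusted p under 0.05 and DESeq2 called 1 in each direction. Of all 12731 genes, 3775 had such a p, and DESeq2 called 1232 higher and 927 lower. The edgeR call was again that of Tomm70a (-1.17, standard error 0.26, adjusted p = 0.0393, edgeR). That call was lost without HS 135 min replicate 3, control replicate 2 or control replicate 3, each of which left none lower. Among all genes these fits called 0, 3 and 1 lower, against 336 with all libraries.

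Of 11 other mitochondrial chaperones and assembly factors, 6 were called higher at 405 min of Tu, led by the iron-sulfur cochaperone Hscb (1.34, standard error 0.15, adjusted p = 0.000292) and the ATP synthase assembly factor Atpaf2 (0.90, standard error 0.16, adjusted p = 0.00264, edgeR). This count was 3 without Tu 405 min replicate 2 or replicate 3, 4 without control replicate 3, and 3 when scaled by total counts or in the shared fit. Among all genes these settings called 2014, 2048, 2325, 2411 and 2008 higher in the same order, against 2965. Of the 11, 2 were called lower at 45 min of Tu, Dnajc15 (-1.05) and Phb (-0.81), beside 2.17% of all genes. This count was 0 without Tu 45 min replicate 1 or 2 or control replicate 2 or 3, and 1 without Tu 45 min replicate 3. Among all genes these fits called 46, 3, 18, 17 and 69 lower in the same order, against 276 with all libraries. From 135 to 405 min 6 were called higher, among them Dnajc15 (1.45), beside 21.4% of all genes, and the number was 3 without Tu 405 min replicate 1 or 3 and 8 without Tu 135 min replicate 1 (4 without Tu 405 min replicate 2 or Tu 135 min replicate 2). Among all genes these fits called 2149, 1692, 4094, 1713 and 2041 higher in the same order, against 2720 with all libraries. None of the 11 was called by edgeR at 135 min of HS, where 4 had an unadjusted p under 0.05 and DESeq2 called 2 lower. Of all 12731 genes, 3775 had such a p, and DESeq2 called 927 lower. Of 12 other mitochondrial proteases, 4 were called higher and 2 lower at 405 min of Tu. The largest were Immp2l (1.25, standard error 0.24, adjusted p = 0.00341) and Immp1l (0.73, standard error 0.20, adjusted p = 0.0185, edgeR), the catalytic subunits of the inner membrane peptidase. The others, named after their values were seen, were Htra2 (0.62) and Parl (0.42), higher, and Mipep (-0.70) and Pitrm1 (-0.47), lower. The number higher fell to 2 without Tu 405 min replicate 3 or control replicate 3, and that lower to 0 without Tu 405 min replicate 2 or replicate 3. Among all genes the former fits called 2048 and 2325 higher, and the latter 2053 and 2113 lower. With all libraries 2965 were higher and 2995 lower. Of the 12, 3 were called lower at 135 min of HS, beside 2.64% of all genes, among them Immp1l (-1.66, adjusted p = 0.0234) and Parl (-1.37, adjusted p = 0.0474, edgeR), with Pmpca (-1.22) as the third. This count was 0 without HS 135 min replicate 3, control replicate 2 or control replicate 3, and 1 without control replicate 1. Among all genes these fits called 0, 3, 1 and 192 lower in the same order, against 336 with all libraries. Of the import genes and proteases edgeR called none at 45 min of Tu, of which 6 and 2 had an unadjusted p under 0.05 and DESeq2 called 5 and 2 lower, and without control replicate 1 edgeR called 6 and 3 lower. Of all 12731 genes, 3260 had such a p and DESeq2 called 871 lower. Without control replicate 1 edgeR called 1108 of all genes lower. The shares called higher at 405 min of Tu stand beside 23.3% of all genes, and those called lower beside 23.5%.

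The 5 transcription factors tied to the mitochondrial stress response were also read. At 405 min of Tu 4 of them were called higher, beside 23.3% of all genes. Ddit3 rose most (log2 5.22, standard error 0.19, adjusted p = 2.45e-06), then Atf4 (1.61, standard error 0.13, adjusted p = 5.58e-05, edgeR), and, named after their values were seen, Cebpb (1.48) and Hsf1 (0.85). The remaining factor, Atf5, was not called by edgeR against the controls at any time in the pairwise fits of all libraries without an offset. Under HS 2 were called higher at 135 min, beside 4.75% of all genes. These were Ddit3 (2.32, standard error 0.29, adjusted p = 0.0122) and Atf4 (1.57, standard error 0.26, adjusted p = 0.0201, edgeR). Both calls were lost without HS 135 min replicate 3, control replicate 2 or control replicate 3. Among all genes these fits called 11, 12 and 10 higher, against 605 with all libraries. At 45 min of Tu 3 were called higher, beside 4.01% of all genes, with Ddit3 at 2.92 and Cebpb at 0.91. The third was Atf4 (0.76), and the count was 1 without Tu 45 min replicate 2, control replicate 2 or control replicate 3. Among all genes these fits called 55, 84 and 79 higher, against 510 with all libraries. In HS at 45 min edgeR called no gene of these 4 mitochondrial lists, and 4 import genes, 0 chaperones, 4 proteases and 4 of the 5 factors had an unadjusted p under 0.05. DESeq2 called 3 of the factors higher there. Of all 12731 genes, 2480 had such a p at this time, and DESeq2 called 386 higher and 65 lower. Without HS 45 min replicate 3 edgeR called 5 factors, 2 import genes, 1 chaperone and 1 protease higher and 7 proteases, 5 import genes and 3 chaperones lower. Over all 12731 genes that fit called 2737 higher and 3049 lower. In Tu at 135 min edgeR called none, the numbers at an unadjusted p under 0.05 were 10, 2, 1 and 2 in the same order, and DESeq2 called 2 factors higher and 2 import genes and 1 chaperone lower. Of all 12731 genes, 2369 had such a p at this time, and DESeq2 called 318 higher and 321 lower.

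The genes with the pattern most like that of a member were sought among 8279 genes with a mean of at least 10 CPM. The members themselves, counted in that number, were left out of the ranking. The measure was the root mean square difference of centred log2 CPM over the 18 libraries. For Lonp1 these were Esyt1 (0.14), Relb (0.16) and Ascc2 (0.19). For Hspd1 they were Wbp5 (0.29), Mrps6 (0.29) and l7Rn6 (0.30). By this measure no gene outside the members came as near to Hspd1 as the named genes came to Lonp1. The measure is not scaled to the spread of a gene, so it does not compare how distinct these patterns are. Hspe1, as a member, was not ranked. The libraries' shared GC slope enters these differences.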

How the data were processed

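The authors sequenced poly(A) RNA of 18 samples on an Illumina HiSeq instrument, and their methods name a home-made and a commercial library preparation without assigning samples to them. Reads were mapped to mm9 and counted on RefSeq genes with DNAnexus, and the aligner and counter are not given in the sources used here. For each gene the authors deposited an estimated count (4 significant digits), an RPKM value, a score (the RPKM of a library less its mean, divided by its SD) and a signal (the RPKM divided by its root mean square). The score and the signal were not used.

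Estimated counts were rounded, and genes with at least 1 read in all 18 libraries (12731) were tested with edgeR 4.0.16 in R 4.3.3: TMM within the 2 groups compared, the quasi-likelihood test, and Benjamini-Hochberg adjustment over all genes tested. Genes with an adjusted p under 0.05 are called higher or lower, in 8 comparisons. Standard errors were derived from the F statistic. RPKM was used only to compare levels between genes. Alternatives were no filter, filterByExpr, DESeq2 1.42.0, its size factors, total counts, a fit shared by all 6 groups, the replicate block, an offset for transcript GC content (lowess, span 0.3, longest GENCODE transcript, 96.4% of genes matched), the offset with the block, and leaving out each library. The offset also removes true differences that follow GC content. The offset in the shared fit, leaving out libraries whose GC slope lay over 0.5 from the median of their group, and the Hspe1 to Hspd1 ratio were added after seeing the data. The edgeR test was also run on simulated counts with known fold changes, drawn without a GC dependence that differs between libraries.

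Labels numbered the replicates. Same-numbered deviations from the group means correlated at 0.287, 0.236 and 0.194 for Tu 135 min and the controls. No other comparison had the best match at the same number in all 3 pairs. For HS at 135 and 45 min the values were -0.606, 0.74 and 0.411. The GC dependence of the libraries enters these deviations, so that they do not settle whether the numbers pair the samples. The block changed no call of a member at 135 min of Tu against the controls (0 with and without it).

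The 10 genes and the lists were chosen with earlier results of these data known. All 10 members are named in every comparison. Of each other list, the 2 genes with the largest change past the threshold are named. For Hspd1 and Lonp1 the 3 genes outside the members with the most similar pattern are named. In the files Timm21 appears as 1700034H14Rik and Pam16 as Magmas. The promoter table held 9 of the 10 members.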

Additional observations from a re-analysis of the deposited data

Results flagged for a closer look

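Hspe1 and Hspd1 differed between the 2 stresses at the matched time of 135 min, by a test of HS against Tu libraries in which the controls play no part. Hspe1 was higher under HS by 1.82 and Hspd1 by 1.19 in log2 (adjusted p = 0.0184 and 0.0490 edgeR), in 3 of 3 samples each. The high GC slope of HS 135 min replicate 2 (0.87) and of Tu 135 min replicate 1 (0.45) stands beside these values, and its part in them was not tested. Without both libraries the differences were 1.79 and 1.42 (adjusted p = 0.000718 and 0.00236, edgeR), a setting chosen after seeing the data. In the fits without 1 library the call of Hspe1 was lost in 4 of 6 and that of Hspd1 in 5 of 6, and both were lost with the replicate block (adjusted p = 0.328 and 0.452, edgeR).

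Between 135 and 405 min of Tu 8 genes differed, all higher in 3 of 3 samples at 405 min. The log2 differences were 1.44 for Lonp1, 1.19 for Dnaja3, 1.05 for Clpp, 1.0 for Hspe1, 0.89 for Hspa9, 0.78 for Hspd1, 0.74 for Grpel1 and 0.70 for Clpx, with adjusted p-values up to 0.0173 (edgeR). They stand beside 21.4% of all genes called higher in the same comparison. With groups of 3 no test for a sample far from the others was made.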

How the results depend on the processing

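The 18 calls of members over the 8 comparisons kept their direction in every setting that was run. All 18 were kept without a filter, with filterByExpr, by DESeq2 and with the GC offset, 17 with DESeq2 size factors, 16 with total counts, 16 with the GC offset in the shared fit, 15 in the shared fit, 15 with the GC offset and the replicate block, and 13 with the replicate block. Scaling by total counts moved the median log2 fold change of all genes to -0.19 at 45 min of HS and -0.19 at 135 min of HS (-0.03 and -0.02 with TMM), to -0.18 for HS against Tu at 135 min (-0.03 with TMM) and to 0.10 at 45 min of Tu (-0.0037 with TMM).

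Counts of members called were as follows, where they moved by over 1.5 times. The count at 135 min of HS against the controls (1) was 2 in the shared fit and 2 with the GC offset, 4 with that offset in the shared fit, and 0 with the replicate block. That at 45 min of Tu (1) was 2 with DESeq2, total counts, the GC offset and that offset in the shared fit, and 0 with the replicate block. At 135 min of Tu it was 1 with the GC offset in the shared fit (Clpp, -0.39) in place of 0. For HS at 135 against 45 min it was 1 with DESeq2, 2 in the shared fit, 2 with the GC offset, 3 with that offset in the shared fit and 4 without the libraries that stood apart, in place of 0. For HS against Tu at 135 min (2) it was 1 with DESeq2 size factors, 1 with total counts, and 0 with the replicate block, with and without the GC offset. Smaller moves were seen at 405 min of Tu. Against the controls (6) the count was 5 with total counts, in the shared fit and with the replicate block, 7 with the GC offset, 8 with that offset and the block, and 5 to 8 without 1 library. Against 135 min (8) it was 6 in the shared fit, 7 with the GC offset in the shared fit or with the block, and 7 to 9 without 1 library. In fits without 1 library the counts ran from 0 to 3 at 45 min of HS, 0 to 2 at 135 min of HS, 0 to 2 at 45 min of Tu and 0 to 2 for HS against Tu at 135 min. Whether the replicate numbers pair the samples was not settled. The replicate block lowered the count of calls over all genes from 605 and 336 to 0 and 0 at 135 min of HS. Over all genes the calls higher and lower ran up to 2438 and 2059 there (GC offset in the shared fit), to 2737 and 3049 at 45 min of HS (without HS 45 min replicate 3), to 1391 and 1108 at 45 min of Tu (without control replicate 1, against 21 and 0 with the block), to 746 and 599 at 135 min of Tu and to 1611 and 1381 for HS against Tu at 135 min (GC offset in the shared fit). They ran to 2303 and 1594 for HS at 135 against 45 min without the libraries that stood apart. At 405 min of Tu they fell to 2008 and 2049 in the shared fit, and from 135 to 405 min of Tu to 1692 and 1855 without Tu 405 min replicate 3.

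Values that changed sign all belonged to members that were not called, and those listed next are from the comparisons with the controls. With the GC offset, alone, with the block and in the shared fit, those at 45 min of HS were -0.21, -0.21 and -0.20 for Clpp, 0.0797, 0.110 and 0.0873 for Clpx and 0.27, 0.26 and 0.27 for Grpel1, and Hspd1 had 0.0458 with the block. At 135 min of HS they were -0.19, -0.20 and -0.19 for Clpp and 0.18, 0.16 and 0.19 for Grpel1, and at 135 min of Tu 0.0632, 0.0956 and 0.0630 for Clpx and 0.0969, 0.0693 and 0.0989 for Grpel1. With total counts Clpp had -0.0927 at 135 min of HS, and at 45 min of Tu Grpel1 had 0.0406, Hspe1 0.0605 and Trap1 0.0432. In fits without 1 library, ranges that crossed 0 were, at 45 min of HS, -0.26 to 0.0014 for Grpel1, -0.40 to 0.0076 for Hspe1 and -0.17 to 0.0480 for Trap1. Those at 135 min of HS were -0.0730 to 0.28 for Clpp, -0.25 to 0.0119 for Grpel1, -1.12 to 0.0022 for Hspa9 and -0.12 to 0.0739 for Trap1. Those at 45 min of Tu were -0.14 to 0.31 for Clpx, -0.23 to 0.0364 for Grpel1, -0.0893 to 0.23 for Hspa9, -0.23 to 0.12 for Hspe1, -0.15 to 0.0394 for Trap1 and -0.17 to 0.15 for Yme1l1. Those at 135 min of Tu were -0.43 to 0.0113 for Clpx, -0.23 to 0.0235 for Grpel1, -0.29 to 0.0483 for Hspe1, -0.0238 to 0.36 for Lonp1 and -0.0792 to 0.16 for Trap1, and at 405 min of Tu -0.0555 to 0.39 for Hspd1. Between stress groups some ranges that crossed 0 were wider. For HS at 135 against 45 min they were -0.36 to 1.35 for Yme1l1 and -0.30 to 0.84 for Hspa9. For HS against Tu at 135 min Hspa9 had -0.83 to 0.31. The cause of these changes was not tested. Whether depth limits the calls of the lowest members, Clpx and Yme1l1, was not tested. With 3 libraries a group, each fit without 1 library compared 2 with 3.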
